A study of Gallus gallus with 6 samples.

Results

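The miRNAs described here are those of chicken liver whose name carries a number of 2000 or more, apart from the arms of miR-2131. They were chosen by name alone, and 152 of the 565 mature miRNAs listed in the data met the rule. The study sequenced small RNA from the liver of Lushi green-shell hens, a Chinese egg-laying breed, to compare peak-laying hens with pre-laying hens. L30 denotes 3 libraries from hens of 30 weeks, labelled egg-laying. L20 denotes 3 libraries from hens of 20 weeks, labelled juvenile, which served as the baseline. The paper describes the hens of 20 weeks as pre-laying and hens of both ages as sexually mature. All birds were healthy females, caged in a shared environment with free access to water and feed, and no other treatment was given. Age and laying state changed together in this design, so the effects of each cannot be told apart.

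MiRNAs are short RNAs that guide Argonaute proteins to messenger RNAs, which are then repressed or degraded. Their numbers follow the order in which sequences entered the miRBase registry. Low numbers therefore belong mostly to miRNAs that were found early, many of them abundant and shared by distant vertebrates, whereas high numbers belong to miRNAs that were found later, mostly by deep sequencing. A miRNA is cut from a hairpin precursor, and the suffixes 5p and 3p name the arm of the hairpin from which a mature miRNA comes. The numbers of the 152 miRNAs fell into 4 stretches, from 2128 to 2954, from 3064 to 3607, from 6516 to 6710 and from 7441 to 7477.

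A total of 8804077, 4464591 and 3864984 reads were counted on all listed miRNAs in L30-1, L30-2 and L30-3, and 11765611, 14822854 and 7135289 in L20-1, L20-2 and L20-3. These reads were 45.0%, 33.2% and 18.2% of the clean reads in L30 and 58.0%, 55.8% and 49.1% in L20, so the share of clean reads that fell on miRNAs differed between the ages without overlap. Levels are therefore given on 2 scales. TPM is the number of reads per 1000000 clean reads, and RPM is the number per 1000000 counted miRNA reads. A miRNA with 3 reads would stand at 0.153, 0.223 or 0.141 TPM in the L30 libraries and at 0.148, 0.113 or 0.206 TPM in the L20 libraries, and levels at or under this floor were not read as differences. The hepatocyte marker miR-122, with both arms summed, lay between 12896 and 38273 TPM in L30 and between 50943 and 71220 TPM in L20, which fits the liver label. No source states whether each library came from 1 hen, so the p values measure the spread between these libraries.

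MiRNAs numbered 2000 and above made up a small part of the miRNA reads at both ages. They took 20475, 10180 and 7002 reads in the L30 libraries, against 25684, 47847 and 15783 reads in the L20 libraries. Their share of the counted reads was 0.233% (95% exact binomial interval 0.229 to 0.236), 0.228% (0.224 to 0.232) and 0.181% (0.177 to 0.185) in L30, against 0.218% (0.216 to 0.221), 0.323% (0.320 to 0.326) and 0.221% (0.218 to 0.225) in L20. The intervals cover counting error only. The mean share was 0.214% ± 0.0285 in L30 and 0.254% ± 0.0595 in L20 (SD, n = 3 each). The ages overlapped in this share, because L30-1 and L30-2 lay above L20-1 and L20-2 was the highest of all. Their summed level was 1047, 757 and 329 TPM in L30, against 1265, 1802 and 1085 TPM in L20, where all L30 libraries lay below all L20 libraries. Over all 6 libraries, the 152 miRNAs held 0.250% of the counted reads, the 181 miRNAs numbered from 1000 up to 2000 held 0.405%, and the 230 numbered below 1000, let-7 included, held 99.3%.

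The number of these miRNAs detected overlapped between the ages, also once depth was equalised. At least 1 read was counted for 86, 76 and 64 of the 152 in L30, against 87, 96 and 83 in L20, which gave means of 75.3 ± 11.0 in L30 and 88.7 ± 6.66 in L20 (SD, n = 3 each). The totals counted overlapped between the ages, with L30-1 above L20-3, and the number detected had the same order as these totals over the 6 libraries. In a random draw of 3864984 miRNA reads, the smallest total of any library, the expected number was 67.1, 72.7 and 64 in L30, against 60.0, 61.9 and 67.1 in L20. L30-2 then had the most and L20-1 the fewest. At least 10 reads were counted for 21, 18 and 16 of them in L30, against 21, 28 and 18 in L20.

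**Figure D1:**
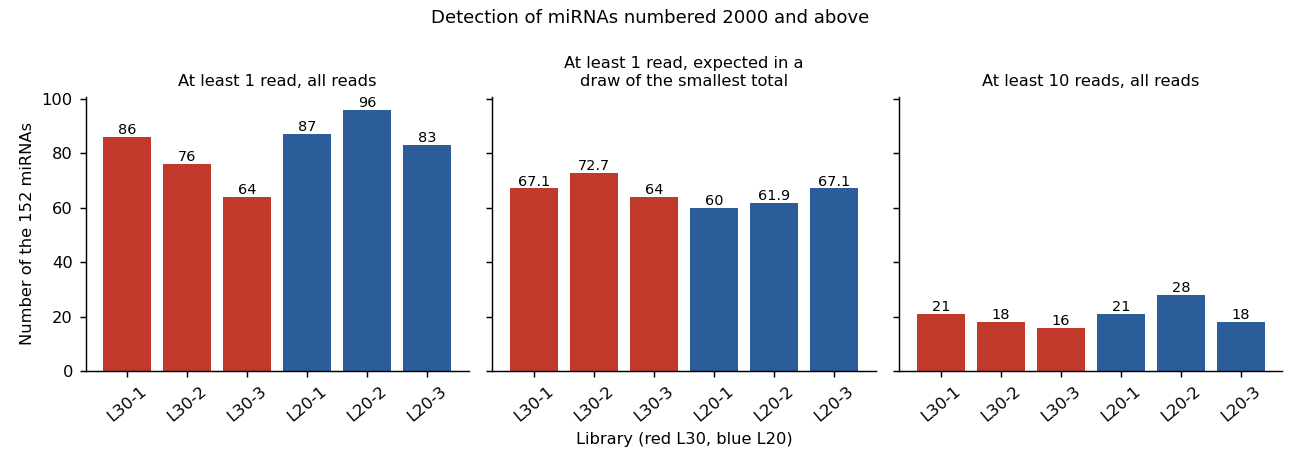
Number of the 152 miRNAs (vertical axis) detected in each library, L30 in red and L20 in blue, with at least 1 read, with at least 1 read expected in a draw of 3864984 reads, and with at least 10 reads. Between 64 and 96 miRNAs had a read, and the order of the ages was not kept at equal depth.

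Most of the 152 were near the limit of detection. In all, 118 had a read in L30 and 131 in L20, and 97 had a read at both ages. The 21 seen in L30 alone had at most 5 reads, reached by miR-6602-5p, and the 34 seen in L20 alone had at most 6, reached by miR-6649-5p, too few to show a gain or loss between the ages at this depth. Only 29 of the 152 (19.1%) had a read in all 6 libraries, against 27.6% of those numbered from 1000 up to 2000 and 79.1% of those numbered below 1000. The median total was 6 reads over the 6 libraries, against 8 and 2257.5 reads in these other classes. A total below 10 reads was found for 92 of the 152 (60.5%), and 33 of these had a single read. A total of 1000 reads or more was reached by 5 miRNAs, which were miR-2954, both arms of miR-2188, miR-3523 and miR-3525.

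Reads were concentrated in a few miRNAs of the lowest stretch of numbers. The 6 miRNAs from 2128 to 2954 had 28420 reads in L30 and 82605 in L20, or 87.4% of the reads of the 152. Of these 6, miR-2954 had 57681 reads in all, miR-2188-5p 52119 and miR-2188-3p 1213, and the other 3 had under 10 each. The 22 from 3064 to 3607 had 7313 reads in L30 and 4789 in L20. The largest group, 94 miRNAs from 6516 to 6710, had 1785 reads in L30 and 1749 in L20, which was 2.78% of the reads, and the 30 from 7441 to 7477 had 139 in L30 and 171 in L20. The median total was 5 reads in the stretch from 6516 to 6710, where miR-6553-3p was the most abundant with 670 reads.

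MiR-2954, miR-2188-5p and miR-3523 accounted for 91.8%, 91.3% and 91.1% of the reads of the 152 in L30, against 93.5%, 96.0% and 94.1% in L20. The balance among them differed between the ages. MiR-2188-5p held 31.7%, 24.9% and 21.9% of these reads in L30, against 42.9%, 51.9% and 36.2% in L20, whereas miR-3523 held 17.6%, 16.3% and 15.4% in L30, against 5.12%, 2.44% and 4.18% in L20. The ages did not overlap in either share. MiR-2954 held 42.5%, 50.1% and 53.7% in L30 and 45.5%, 41.7% and 53.7% in L20, with overlap.

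**Figure D2:**
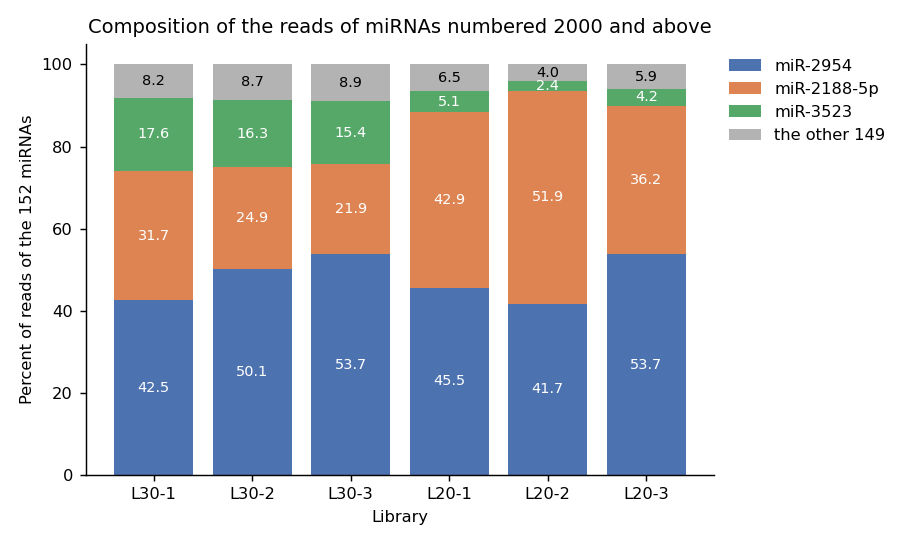
Percent of the reads of the 152 miRNAs (vertical axis) that came from miR-2954, miR-2188-5p, miR-3523 and the other 149 in each library. The green block of miR-3523 takes 15.4% to 17.6% in L30 and 2.44% to 5.12% in L20.

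Of the 152 miRNAs, 20 had enough reads for the test across all miRNAs, and these held 99.0% of their reads. EdgeR's quasi-likelihood test was run over all 6 libraries with the clean reads as library size, where 236 of the 565 miRNAs were tested and an adjusted p of at most 0.05 was called. Scaled to clean reads, 1 of the 20 fell in L30, miR-2188-5p, and 0 rose, beside a background of 24.6% of all tested miRNAs called lower and 0% called higher. Without adjustment, 2 of the 20 were lower and 1 was higher at p of at most 0.05, against 88 and 4 of all 236 tested. DESeq2 called 2 of the 20 lower and 1 higher, against 79 and 2 of the 236, of which 37 received no adjusted p and could not be called. Limma called 1 lower and 0 higher, against 69 and 0 of the 236. All L30 libraries lay below all L20 libraries in TPM for 5 of the 20 and above them for 1, against 46.2% and 2.54% of all tested miRNAs. The 5 include miR-3539, which had enough reads for the test in L20 libraries only, and the 1 is miR-6542-3p, which had enough in L30 libraries only. Both could be tested only through the age at which they were high, and among the other 18 the numbers were 4 below and 0 above. These 4, miR-2954, miR-2188-5p, miR-3525 and miR-6544-5p, had enough reads in all 6 libraries, as 11 of the 20 did. Some of the 18 still leaned on 1 age, as miR-3538 and miR-7472-5p had enough in 3 L20 libraries but 1 L30 library. L30 and L20 libraries of the same number were also treated as a block, a pairing that no source states. With this block 3 of the 20 fell, miR-2188-5p, miR-2188-3p and miR-2954, and 0 rose, beside 37.3% and 0.847% of all tested. In this fit 1 of the 20 was higher at p of at most 0.05 without adjustment, against 4 of all 236 tested. The median log2 fold change of the 20 was -0.28, against -0.86 over all 236 tested, -0.45 over the 41 tested miRNAs numbered from 1000 up to 2000 and -1.01 over the 173 numbered below 1000.

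Scaled to the counted miRNA reads, the picture turned. There, 0 of the 20 fell and 6 rose in edgeR's test (miR-3523, miR-6542-3p, miR-6553-3p, miR-6582-3p, miR-6606-5p and miR-6631-5p), beside 16.1% called lower and 12.3% called higher over all tested miRNAs. On this scale 1 of the 20 was lower at p of at most 0.05 without adjustment, against 58 of all 236 tested. DESeq2, run relative to clean reads only, called 2 lower, against 79 of the 236. All L30 libraries lay below all L20 libraries in RPM for 1 of the 20 and above them for 6, against 27.5% and 19.5% of all tested. The median log2 fold change was then 0.73 for the 20 and -0.10 over all tested, so the change of scale moved the median of all tested miRNAs by 0.76 on the log2 scale. Of the 6 that rose, miR-6542-3p had entered the test through L30 alone, and among the 18 members with enough reads in at least 1 library of both ages 5 were called higher and 0 lower. With the replicate block on this scale, 1 of the 20 fell, miR-2188-5p, and 5 rose, beside 19.1% and 13.1% of all tested. The 5 were miR-3523, miR-6542-3p, miR-6553-3p, miR-6631-5p and miR-6648-3p, so the calls of miR-6582-3p and miR-6606-5p were lost and that of miR-6648-3p was gained.

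**Figure D3:**
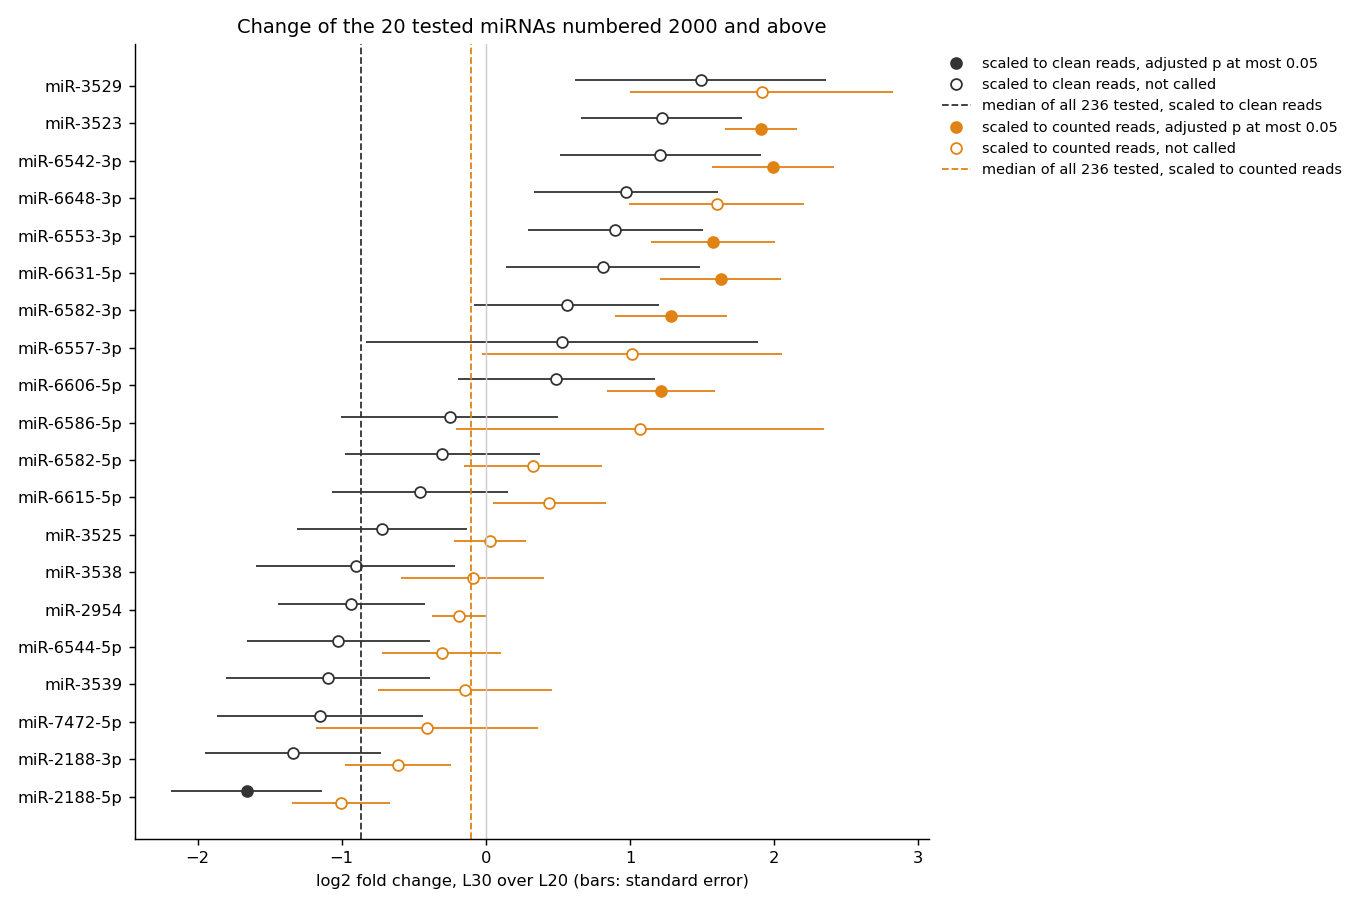
Log2 fold change of L30 over L20 (horizontal axis) with its standard error for each of the 20 tested miRNAs, scaled to clean reads (black) and to counted miRNA reads (orange), with filled points for an adjusted p of at most 0.05. On the clean-read scale only miR-2188-5p is filled, and on the counted-read scale 6 miRNAs with positive values are filled. Dashed lines mark the medians of all 236 tested miRNAs, -0.86 and -0.10.

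In edgeR's test of all 6 libraries without the replicate block, miR-2188-5p was the only one of the 20 called lower in L30 relative to clean reads. The call did not hold under every setting. MiR-2188 is known from fish, amphibians and birds but not from mammals, and its hairpin lies within ANK1 in the RefSeq annotation of GRCg7b. ANK1 encodes the ankyrin that ties the membrane skeleton of red blood cells to the membrane. Counts of miR-2188-5p were 6486, 2534 and 1536 reads in L30, against 11017, 24833 and 5713 in L20. Its level was 332, 188 and 72.2 TPM in L30, against 543, 935 and 393 TPM in L20, and all L30 libraries lay below all L20 libraries. Mean TPM was 197 ± 130 in L30 and 624 ± 280 in L20 (SD, n = 3 each), which is 3.16-fold lower in L30. This is a log2 fold change of -1.66 ± 0.52 (SE), with an adjusted p of 0.0122 in edgeR's test. In RPM the values were 737, 568 and 397 in L30, against 936, 1675 and 801 in L20, still without overlap. On the counted-read scale the log2 fold change was -1.0 ± 0.34 (SE), with an adjusted p of 0.0550 in edgeR's test without the replicate block and of 0.0304 with it, where the log2 fold change was -0.97. With TMM factors on the counted reads it was called lower, with a log2 fold change of -1.18 and an edgeR adjusted p of 0.0355. With upper quartile factors and DESeq2 size factors it was not called (edgeR adjusted p = 0.0932 and 0.0578). Without the block the call thus depended on the scaling. The block was run on the clean-read and counted-read scales only, and it rests on a pairing that no source states. When 1 library was left out on the clean-read scale, the call was kept only without L30-1 and without L20-3. In the omissions that lost it, calls of lower miRNAs over all 236 tested also fell, from 58 to between 6 and 43. The log2 fold change was -1.75 without L20-1 and -1.63 without L30-2, and -1.24 without L20-2 and -1.26 without L30-3. Over the 6 omissions the log2 fold changes lay between -2.26 and -1.24 and the edgeR adjusted p values between 0.00773 and 0.228. With the replicate block on the clean-read scale the log2 fold change was -1.83, with an adjusted p of 0.000418 in edgeR's test.

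The opposite arm, miR-2188-3p, had 185, 53 and 61 reads in L30, against 300, 511 and 103 in L20. Its level was 9.46, 3.94 and 2.87 TPM in L30, against 14.8, 19.2 and 7.08 TPM in L20, and L30-1 lay above L20-3. The fitted log2 fold change was -1.34 ± 0.61 (SE), with an adjusted p of 0.0855 in edgeR's test and of 0.0462 with the replicate block. DESeq2, relative to clean reads, called miR-2188-3p lower with an adjusted p of 0.0495. Scaled to counted reads, the log2 fold change was -0.61, with an edgeR adjusted p of 0.236. The 5p arm supplied 97.2%, 98.0% and 96.2% of the reads of this hairpin in L30, against 97.3%, 98.0% and 98.2% in L20. The log2 ratio of 5p over 3p reads averaged 5.12 ± 0.46 in L30 and 5.53 ± 0.30 in L20 (SD, n = 3 each), a difference of -0.41 (exact two-sided permutation test, p = 0.2, where 0.1 is the smallest p that 3 against 3 allow). The choice of arm was therefore not shown to differ between the ages.

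Markers of red blood cells, which keep their nucleus in birds, were lower in L30 in TPM, as was miR-2188-5p. The summed level of miR-451, miR-144-3p and miR-144-5p, which belong to the erythroid lineage, was 1197, 658 and 288 TPM in L30, against 2556, 3182 and 1597 TPM in L20. Each of the 3 was below its L20 values in all L30 libraries, as were 46.2% of all tested miRNAs in TPM. The ratio of miR-2188-5p to this sum was 0.277, 0.286 and 0.251 in L30, against 0.212, 0.294 and 0.246 in L20. This ratio overlapped between the ages. So did the ratio of miR-2188-5p to the hepatocyte miR-122-5p, at 0.00879, 0.00609 and 0.00568 in L30, against 0.0106, 0.0134 and 0.00788 in L20. Some markers of other cell types were lower in L30 as well. The leukocyte miRNAs miR-142-3p, miR-142-5p, miR-223 and miR-155 summed to 943 to 3664 TPM in L30 and 4627 to 6736 TPM in L20, and 3 of 4 did not overlap. The muscle miRNAs miR-1a-3p and miR-133a-3p summed to 4.94 to 15.8 TPM in L30 and 14.0 to 31.3 TPM in L20, with overlap, and miR-206 was not listed. The endothelial miR-126 arms summed to 6458 to 14792 TPM in L30 and 28732 to 42751 TPM in L20. Both arms of the hepatocyte marker miR-122 were lower in L30 without overlap in TPM. As a share of counted reads the miR-122 arms summed to 7.10% to 9.47% in L30 and 8.97% to 12.8% in L20, with overlap. The erythroid sum did not overlap, at 0.158% to 0.266% in L30 and 0.325% to 0.570% in L20. MiR-451 dominated this sum, with 1145 of the 1197 TPM in L30-1. As a share of counted reads miR-144-3p overlapped, with L30-1 slightly above L20-3. On this scale 27.5% of all tested miRNAs lay below L20 in all L30 libraries. EdgeR's adjusted p values on this scale were 0.0184 for miR-451, 0.0551 for miR-144-3p and 0.0527 for miR-144-5p. The leukocyte sum was 0.519% to 0.853% in L30 and 0.943% to 1.16% in L20. The endothelial sum was 3.01% to 3.55% in L30 and 5.68% to 7.38% in L20. Fewer blood cells in the tissue and less of the miRNA per cell cannot be told apart in bulk liver, and the part of these cells in the change of miR-2188-5p was not tested.

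**Figure D4:**
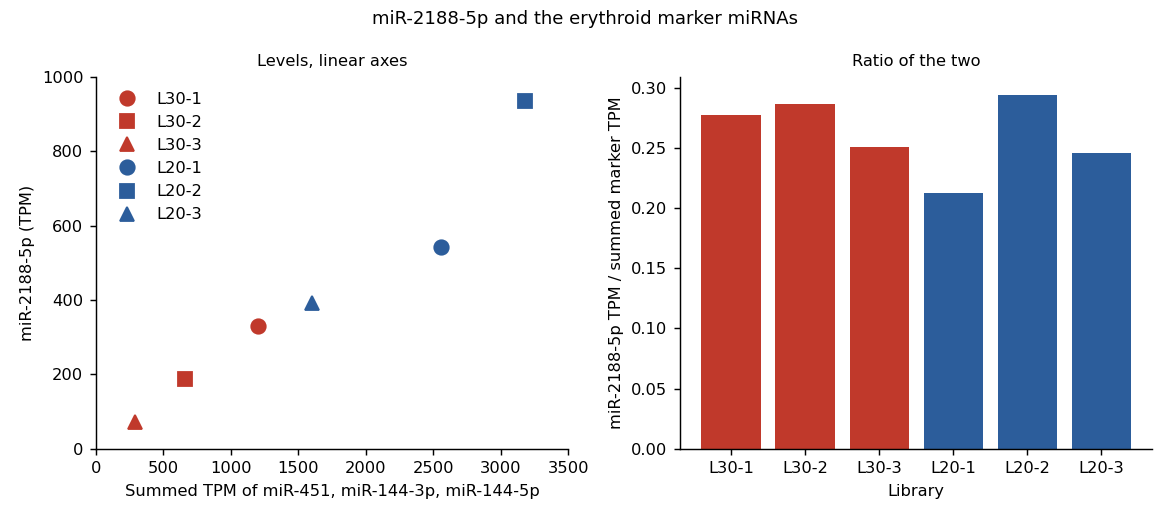
Left, TPM of miR-2188-5p (vertical axis) against the summed TPM of miR-451, miR-144-3p and miR-144-5p (horizontal axis) in each library, and right, the ratio of these values by library, L30 in red and L20 in blue. The ratio lies between 0.212 and 0.294 in all 6 libraries.

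MiR-3523 had the highest log2 fold change of the 10 most abundant members on the counted-read scale. Its hairpin overlaps DUSP1, which encodes a phosphatase that switches off MAP kinases and is induced by stress and glucocorticoids in mammals. The counts were 3612, 1662 and 1080 reads in L30, against 1316, 1168 and 659 in L20. In RPM it had 410, 372 and 279 in L30, against 112, 78.8 and 92.4 in L20, so the lowest L30 library was above the highest L20 library. Mean RPM was 354 ± 67.3 in L30 and 94.3 ± 16.6 in L20 (SD, n = 3 each), 3.75-fold higher in L30. On this scale the log2 fold change was 1.91 ± 0.25 (SE), with an adjusted p of 0.00335 in edgeR's test, and it stayed between 1.79 and 2.05 and was called in 6 of 6 fits that left out 1 library. Its rank among the miRNAs of a library was 65, 62 and 73 in L30, against 99, 105 and 100 in L20. In TPM it had 185, 124 and 50.8 in L30, against 64.8, 44.0 and 45.3 in L20. L30-3 lay below L20-1 in TPM, and L30-3 was also the library with the smallest share of clean reads on miRNAs. Mean TPM was 120 ± 67.0 in L30 and 51.4 ± 11.7 in L20 (SD, n = 3 each), or 2.33-fold higher in L30, with a log2 fold change of 1.22 ± 0.56 (SE) and an adjusted p of 0.0855 in edgeR's test. The rise of miR-3523 thus passed the test relative to counted miRNA reads and did not pass it relative to clean reads, where DESeq2 gave an adjusted p of 0.0432. The paper also measured miR-3523 by quantitative PCR relative to a small nuclear RNA, and reported it higher in L30, as in its sequencing.

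MiR-2954 was the most abundant of the 152 and ranked 44 of 565 by mean TPM. In birds its gene lies on the Z chromosome, and it is known for higher levels in males than in females. All libraries here came from females. The hairpin lies within XPA, which encodes a DNA damage recognition protein of nucleotide excision repair. Counts of miR-2954 were 8698, 5101 and 3763 reads in L30, against 11686, 19956 and 8477 in L20. Its level was 445, 379 and 177 TPM in L30, against 576, 752 and 583 TPM in L20, and all L30 libraries lay below all L20 libraries. Mean TPM was 334 ± 140 in L30 and 637 ± 99.5 in L20 (SD, n = 3 each). Its log2 fold change was -0.93 ± 0.51 (SE), close to the -0.86 of all tested miRNAs, with an adjusted p of 0.160 in edgeR's test and of 0.0404 with the replicate block. In RPM it had 988, 1143 and 974 in L30, against 993, 1346 and 1188 in L20, and the ages overlapped. On the counted-read scale the log2 fold change was -0.18, with an edgeR adjusted p of 0.503. Measured against miR-2954 within a library, miR-3523 stood at a ratio of 0.415, 0.326 and 0.287 in L30 and of 0.113, 0.0585 and 0.0777 in L20, which needs no library size and did not overlap. The ratio of miR-2188-5p to miR-2954 was 0.746, 0.497 and 0.408 in L30, against 0.943, 1.24 and 0.674 in L20, with overlap.

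**Figure D5:**
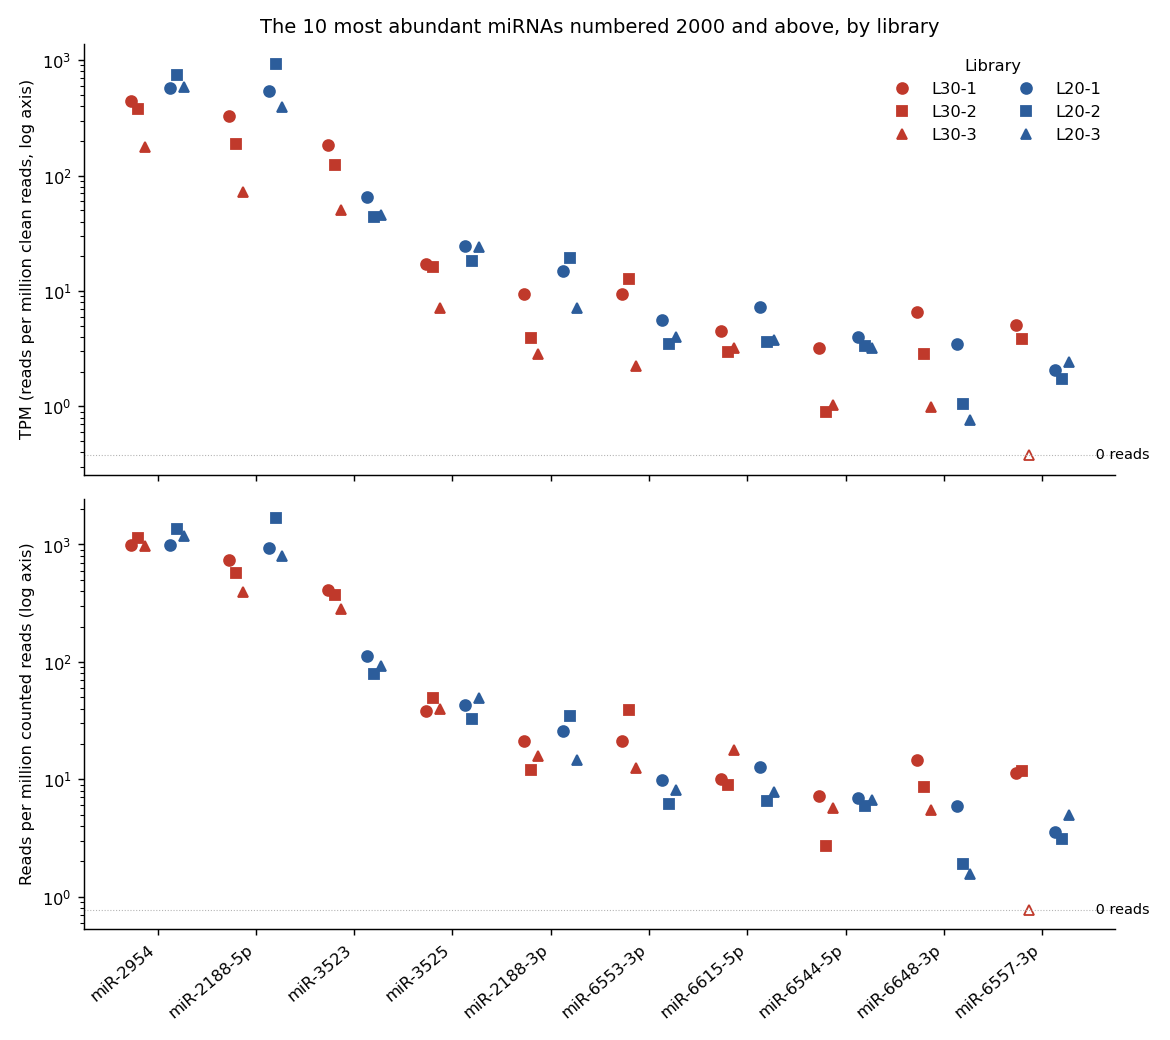
Level of the 10 most abundant of the 152 miRNAs in each library (vertical axes, log scale), as TPM above and as RPM below, L30 in red and L20 in blue, with open symbols for 0 reads. MiR-3523 lies between 279 and 410 in L30 and between 78.8 and 112 in L20 in the lower plot, and miR-2188-5p is lower in L30 in both plots.

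MiR-3525, the fourth in abundance, had 337, 219 and 152 reads in L30, against 500, 481 and 352 in L20. Its level of 17.2, 16.3 and 7.15 TPM in L30 lay below the 24.6, 18.1 and 24.2 TPM in L20 without overlap. The log2 fold change was -0.72 ± 0.59 (SE), with an adjusted p of 0.349 in edgeR's test. It was 0.03 ± 0.25 (SE) on the counted-read scale, with an edgeR adjusted p of 0.925, so no direction of change was shown there.

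MiR-6553-3p was the most abundant miRNA of the stretch from 6516 to 6710, and it rose on the counted-read scale. Its hairpin lies within VAMP1, which encodes a synaptobrevin of vesicle fusion. MiR-6553-3p had 185, 172 and 48 reads in L30, against 115, 92 and 58 in L20. In RPM it had 21.0, 38.5 and 12.4 in L30, against 9.77, 6.21 and 8.13 in L20, without overlap. The log2 fold change on this scale was 1.58 ± 0.43 (SE), with an adjusted p of 0.0282 in edgeR's test, and the call was kept in 3 of 6 fits that left out 1 library. In TPM it had 9.46, 12.8 and 2.26 in L30, against 5.67, 3.46 and 3.99 in L20. The ages overlapped in TPM through L30-3, and the log2 fold change was 0.90 ± 0.61 (SE), with an edgeR adjusted p of 0.257.

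The other members called higher on the counted-read scale had few reads. MiR-6542-3p, whose hairpin overlaps SRF, the gene of the serum response factor, had 29, 9 and 14 reads in L30, against 9, 11 and 5 in L20. Its level was 1.48, 0.67 and 0.66 TPM in L30, against 0.44, 0.41 and 0.34 TPM in L20, without overlap. No L20 library reached the level needed for the test, so miR-6542-3p was tested only because it was high in L30, and its difference is a description. Its log2 fold change was 1.21 ± 0.70 (SE) relative to clean reads and 1.99 ± 0.43 (SE) relative to counted reads. MiR-6631-5p, within the inositol trisphosphate kinase gene ITPKC, had 24, 22 and 16 reads in L30, against 16, 15 and 10 in L20, with a log2 fold change of 1.63 relative to counted reads (edgeR adjusted p = 0.0234). MiR-6582-3p, within the Mediator subunit gene MED23, had 54, 42 and 20 reads in L30, against 36, 35 and 22 in L20, and miR-6606-5p had 25, 12 and 9 in L30, against 13, 17 and 8 in L20. Their log2 fold changes relative to counted reads were 1.28 and 1.22, with edgeR adjusted p values of 0.0418 and 0.0464, and their calls were kept in 1 and 2 of 6 omissions. With the replicate block on the same scale neither was called (edgeR adjusted p = 0.0852 and 0.109). Relative to clean reads, none of these was called, with edgeR adjusted p values between 0.183 and 0.595.

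The 5p arm of mir-6582 had 25, 10 and 5 reads in L30, against 14, 23 and 18 in L20. The 3p arm therefore had more reads in all 6 libraries, and the 5p arm supplied 31.6%, 19.2% and 20.0% of the reads in L30, against 28.0%, 39.7% and 45.0% in L20. The log2 ratio of 5p over 3p averaged -1.73 ± 0.53 in L30 and -0.75 ± 0.55 in L20 (SD, n = 3 each), a difference of -0.97 (exact two-sided permutation test, p = 0.2). Mir-2188 and mir-6582 were the only hairpins of the 26 with both arms listed that had at least 5 reads of both arms in every library. Among the 26, the 5p arm had more reads in 10, the 3p arm in 14, and the arms were equal in 2.

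Further members were abundant enough to be described one by one. MiR-6615-5p, from a hairpin within the metalloprotease gene ADAMTS10, had 89, 40 and 68 reads in L30, against 149, 96 and 55 in L20. Its log2 fold change was -0.46 ± 0.61 (SE) relative to clean reads and 0.44 ± 0.39 relative to counted reads, and neither passed (edgeR adjusted p = 0.584 and 0.430). Its opposite arm, miR-6615-3p, had 14 reads in all, of which 10 were in L20-2. MiR-6544-5p, within the chromatin remodeller gene INO80, had 63, 12 and 22 reads in L30, against 81, 88 and 47 in L20. Its TPM did not overlap, at 3.22, 0.89 and 1.03 in L30, against 3.99, 3.31 and 3.23 in L20, with a log2 fold change of -1.02 ± 0.63 (SE) and an edgeR adjusted p of 0.219. In RPM it overlapped, at 7.16, 2.69 and 5.69 in L30, against 6.88, 5.94 and 6.59 in L20. The log2 fold change relative to counted reads was -0.31, with an edgeR adjusted p of 0.614. Its opposite arm, miR-6544-3p, had 28 reads in all. MiR-6648-3p, which is listed for a pair of hairpins within the uracil-DNA glycosylase gene UNG and cannot be assigned to either, had 128, 38 and 21 reads in L30, against 70, 28 and 11 in L20. For miR-6648-3p the log2 fold change was 0.97 ± 0.64 (SE), with an edgeR adjusted p of 0.241. Relative to counted reads it was 1.60 ± 0.61 (SE) and not called without the replicate block (edgeR adjusted p = 0.0758), and with the block it was 1.74 and called higher (edgeR adjusted p = 0.0218). MiR-6557-3p, within the gene of the Polycomb cofactor JARID2, had 100, 52 and 0 reads in L30, against 42, 46 and 35 in L20. Its L30 libraries thus ranged from the highest level of all 6 libraries to 0, and its log2 fold change of 0.53 ± 1.36 (SE) was not called (edgeR adjusted p = 0.810). The opposite arm, miR-6557-5p, had 25 reads in all.

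Several members rested on a single library. Of the 60 miRNAs with at least 10 reads in all, 10 had more than 50% of their summed TPM in 1 library. MiR-3529, whose hairpin overlaps that of miR-7-2, had 105 of its 162 reads in L30-1, against 11 and 2 in the other L30 libraries and 21, 12 and 11 in L20. Its log2 fold change of 1.49 ± 0.87 (SE) was not called (edgeR adjusted p = 0.208). MiR-6552-3p had 46 of 56 reads in L30-1, miR-6578-3p had 18 of 19 in L30-3 and miR-6546-5p had 49 of 56 in L20-2. MiR-6586-5p, which was tested, had 0, 8 and 39 reads in L30, against 16, 36 and 11 in L20. Of the 42 members with at least 20 reads in all, 15 had 0 reads in at least 1 library.

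The remaining tested members, miR-3538, miR-3539 and miR-7472-5p, had negative log2 fold changes between -1.15 and -0.90 relative to clean reads, with edgeR adjusted p values between 0.221 and 0.314. Relative to counted reads the log2 fold changes lay between -0.41 and -0.09, with edgeR adjusted p values between 0.724 and 0.911. MiR-3538 had 8, 12 and 6 reads in L30, against 21, 31 and 10 in L20. The RefSeq entry for its hairpin is SNORD83A, a small nucleolar RNA gene within the ribosomal protein gene RPL3. The entry for mir-3535 is likewise SNORD20, within the nucleolin gene NCL, and that for mir-3540 is SCARNA15, a small Cajal body RNA gene within PDE8A. MiR-3535 had 9 reads in L30 and 20 in L20, and miR-3540 had 12 in L30 and 28 in L20. The annotation thus places these 3 among RNAs that guide chemical modification of other RNAs, and their reads cannot be told apart from fragments of such RNAs. The 132 members that were not tested had at most 58 reads each and together 594 reads in L30 and 716 in L20.

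The hairpins lay mostly within protein-coding genes and away from other miRNA genes. Of 129 hairpin genes, 120 were matched by name to the RefSeq annotation of GRCg7b, and 103 of these (85.8%) overlapped a protein-coding gene, strand not considered, against 219 of 298 (73.5%) for the other listed miRNAs. Another miRNA gene lay within 10000 bases of 9 of the 120 (7.5%), against 107 of 298 (35.9%) for the others. Mir-3529, mir-6675, which lies near MIR100 and MIRLET7A2, and mir-2954, which lies near MIR1583, were among the 9. These shares describe the annotation and were not tested.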

How the data were processed

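Liver small RNA of 3 L30 and 3 L20 libraries was analysed, grouped by the ages in the labels. The authors removed adaptors, low-quality reads and short reads, then aligned what was left (the clean reads) to miRBase in CLC Genomics Workbench, with a few mismatches and slightly shortened or extended ends tolerated, so reads of closely related miRNAs may be shared. The genome build of the table is not given in the sources used here. A raw read count per mature miRNA and library was deposited, beside TPM values. The deposited TPM equalled the counts divided by totals 1.02 to 1.12 times the clean reads of the study. These recovered totals match the raw reads that the paper lists for each library, so TPM was recomputed from counts and clean reads. All columns of sample values were mapped (0 left over).

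The quasi-likelihood test of edgeR 4.0.16 (R 4.3.3, robust glmQLFit) was applied to the counts, with clean reads as library size. FilterByExpr, at a count of 10 and a total of 15, left 236 miRNAs, over which p values received the Benjamini-Hochberg adjustment. Standard errors were derived from the F statistic. Alternatives were the summed counts or the recovered totals as library size, factors from TMM, DESeq2 or the upper quartile, the DESeq2 1.42.0 test, limma 3.58.1 (log2 of TPM with a pseudocount of 1), a Fisher's exact test of pooled counts, other filters, each library left out, and a replicate block. The summed counts combined with an omitted library or with the block were added after seeing the data. Replicate numbers come from the library names. Deviations of same-numbered L30 and L20 libraries from their group means correlated at 0.119, 0.171 and 0.188 over the tested miRNAs. Libraries of different number gave -0.134 to -0.0173. Because deviations are taken within groups of 3, positive values for same numbers bring negative ones for the others. These correlations therefore cannot show that libraries were paired. No source states a pairing of the libraries, which come from hens of different age, so the block is an assumption. The methods were tested on simulated counts. Replicates differed by more than counting noise.

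All tested members could be named, and the 10 with the highest mean TPM, every called member and opposite arms were given in full. Untested members named for single-library reads, detection or annotation were chosen after their values were seen. Members and lists were chosen with earlier results of these data known. Hairpins were matched to RefSeq genes of GRCg7b by name. Figures used matplotlib 3.10.9 in Python 3.11.15.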

Additional observations from a re-analysis of the deposited data

How the results depend on the processing

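The direction of change and the calls of these miRNAs depended on the library size. The number of members called lower in L30 was 1 with clean reads as library size and 1 with TMM factors. It was 0 with the summed counts, 0 with upper quartile factors, 0 with DESeq2 size factors and 2 with DESeq2. It was 9 with Fisher's exact test on pooled counts, which ignores the spread between libraries, 2 without a filter, and 0 to 4 when 1 library was left out. Of all 236 tested miRNAs, 58 were called lower with clean reads and 38 with the summed counts. TMM factors gave 55, upper quartile factors 25 and DESeq2 size factors 38. DESeq2 called 79 of the 236 lower and Fisher's test 174, and 6 to 102 were lower when 1 library was left out. For 37 of the 236, DESeq2 gave no adjusted p. Without a filter, 48 of 565 were called lower. The number of members called higher was 0 with clean reads, against 6 with the summed counts, 4 with TMM factors, 7 with upper quartile factors and 6 with DESeq2 size factors. It was 1 with DESeq2, 8 with Fisher's test and 0 to 2 when 1 library was left out. MiR-6542-3p, tested only because it was high in L30, is in all these counts except those of clean reads, DESeq2 and the omissions. Without it, 5 were called higher with the summed counts. MiR-3539, which had enough reads in L20 libraries only, is among the 9 that Fisher's test called lower. Of all 236 tested, 0 were called higher with clean reads, 29 with the summed counts and 21 with TMM factors. Upper quartile factors gave 41, DESeq2 size factors 33, DESeq2 2, Fisher's test 31 and the omissions 0 to 5. With the summed counts and 1 library left out, 0 members were called lower and 1 to 7 higher, against 21 to 34 and 11 to 33 of the 236. MiR-3523 was called in each of these 6 fits, and it was the single member called without L20-2 and without L20-3. The other fits also called miR-6542-3p. The median log2 fold change of the tested members was -0.28 with clean reads, and was 0.73 with the summed counts, 0.56 with TMM factors, 0.96 with upper quartile factors and 0.74 with DESeq2 size factors, against -0.72 to -0.12 with 1 library left out.

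With the replicate block, 3 members were called lower (miR-2188-5p, miR-2188-3p and miR-2954) and 0 higher with clean reads, and 1 lower (miR-2188-5p) and 5 higher (miR-3523, miR-6542-3p, miR-6553-3p, miR-6631-5p and miR-6648-3p) with the summed counts. Of these, miR-6542-3p was tested only because it was high in L30. MiR-6648-3p was also called higher with upper quartile factors and, with the summed counts, without L20-1. Of all tested miRNAs, 37.3% were called lower and 0.847% higher with the block and clean reads, and 19.1% and 13.1% with the summed counts. The pairing rests on the library numbers only, since the correlations between libraries cannot show it, and no source states it.

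A detection limit of 3 reads gave a mean of 41.7 members in L30 and 48.7 in L20, and one of 10 reads gave 18.3 in L30 and 22.3 in L20, while omissions gave 70 to 81 in L30 and 85 to 91.5 in L20. The share of members was 0.0711% of clean reads in L30 and 0.138% in L20, and without miR-2954 it was 0.110% of counted reads in L30 and 0.137% in L20. Omissions gave 0.205% to 0.230% in L30 and 0.220% to 0.272% in L20. The log2 fold change turned positive for miR-2954 with upper quartile factors (0.035), for miR-3525 with the summed counts (0.028), upper quartile factors (0.28) and DESeq2 size factors (0.037), and for miR-6615-5p with the summed counts (0.44), TMM (0.28), upper quartile (0.72) and DESeq2 size factors (0.46). None of these positive values was called, so they do not show a rise. For miR-6557-3p, which had 0 reads in L30-3, it turned negative with the replicate block (-0.18) and without L30-1, and lay between -0.13 and 1.12 over the omissions. Apart from these scale effects, the cause of the differences was not tested. Depth limits the 132 untested members, of which 92 had under 10 reads.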
